A study of Mus musculus with 16 samples.

Results

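The receptors of bone morphogenetic proteins (BMP), activins and transforming growth factor beta (TGF-beta) were followed together with neogenin through haematopoietic stem cells (HSC), induced pluripotent stem cells (iPSC) and embryonic stem cells (ESC) of the mouse. They are 10 genes: the type I receptor genes Bmpr1a, Bmpr1b, Acvr1 and Tgfbr1, the type II receptor genes Bmpr2, Acvr2a, Acvr2b and Tgfbr2, the co-receptor gene Tgfbr3, and Neo1. The members were all 33 probe sets annotated with exactly 1 of these symbols, among 34945 probe sets with a single symbol and 18193 genes on the array. A further probe set annotated with both Orc4 and Acvr2a was left out. Neo1 had 5 probe sets, Bmpr1a 6, Acvr2a and Tgfbr3 2 each, and the other genes 3 each. The genes were selected on pathway membership together with earlier results of these arrays, in which Neo1 stood out between aged and young HSC. Comparisons of aged with young HSC are therefore given for the 10 genes as a description, with no test.

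The data come from 16 Affymetrix arrays hybridised with 1 sample each, and every group has 3 or 2 of them. The groups were 3 arrays of steady-state HSC from aged male mice (21 to 24 months) and 3 from young male mice (3 to 4 months), sorted from bone marrow. There were 2 arrays each of HSC sorted from recipients of aged marrow and from recipients of young marrow, called aged and young transplanted HSC here. The culture groups were 2 arrays each of iPSC of aged and of young haematopoietic origin, and 2 ESC arrays from different suppliers, Open Biosystems and Primogenix. All samples were labelled wild type on the C57Bl6 background, and RNA was labelled from 10000 cells per preparation. Neither the age nor the sex of the transplanted HSC, the time since transplantation, nor the number of iPSC clones is given in the labels.

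Ligands of this family bind pairs of type I and type II serine/threonine kinase receptors. The type II receptor phosphorylates the type I receptor, which in turn phosphorylates SMAD proteins that enter the nucleus with Smad4. BMP receptors act through Smad1, Smad5 and Smad9, and TGF-beta and activin receptors through Smad2 and Smad3. Neogenin is a transmembrane receptor for netrins and for the repulsive guidance molecules (RGM), which are also BMP co-receptors. In blood, TGF-beta is known for restraining the division of HSC, and BMP4 for specifying blood in the embryo and for its presence in the marrow niche.

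Levels are log2 of the deposited intensities, and a gene is given by its brightest probe set, the one with the highest mean over the 16 arrays. Median intensity per array lay between 43.5 and 51.9. Replicate arrays correlated across genes at 0.984 to 0.993 in steady-state HSC, iPSC and ESC, at 0.957 in aged transplanted HSC and at 0.927 in young transplanted HSC, so the transplanted pairs stood further apart. All 8 measured HSC markers were above the array's 25th percentile in all 4 HSC groups, and all 8 measured pluripotency markers did so in iPSC and ESC. The separation was not complete. Of the 8 pluripotency markers, 4 were above that percentile in young steady-state HSC and 3 in each other HSC group. Nanog, Zfp42, Tdgf1 and Fgf4 were below it in all 4 HSC groups. Of the 8 HSC markers, 4 were above it in iPSC of each origin and 5 in ESC. Apart from ESC, arrays within a group carry biological replicate numbers in the labels, which do not say whether separate mice or pools were used. P-values therefore rest on array-to-array spread, part of which may be technical.

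The 10 genes spanned most of the range of the array. In steady-state HSC, Tgfbr3 was at percentile 98 of all genes on aged arrays and 97.4 on young arrays, and Bmpr2 at 96.9 and 96.8. Tgfbr2 was at percentile 89.7 on aged and 89.4 on young arrays. Bmpr1b was at 3.96 to 4.67 log2 on the 16 arrays and did not pass the filter that removed genes below the 25th percentile of mean level, so 9 of the 10 genes were tested. The level of 1 probe set depends on its sequence as well as on the amount of RNA, so the genes are not ranked against each other.

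**Figure D1:**
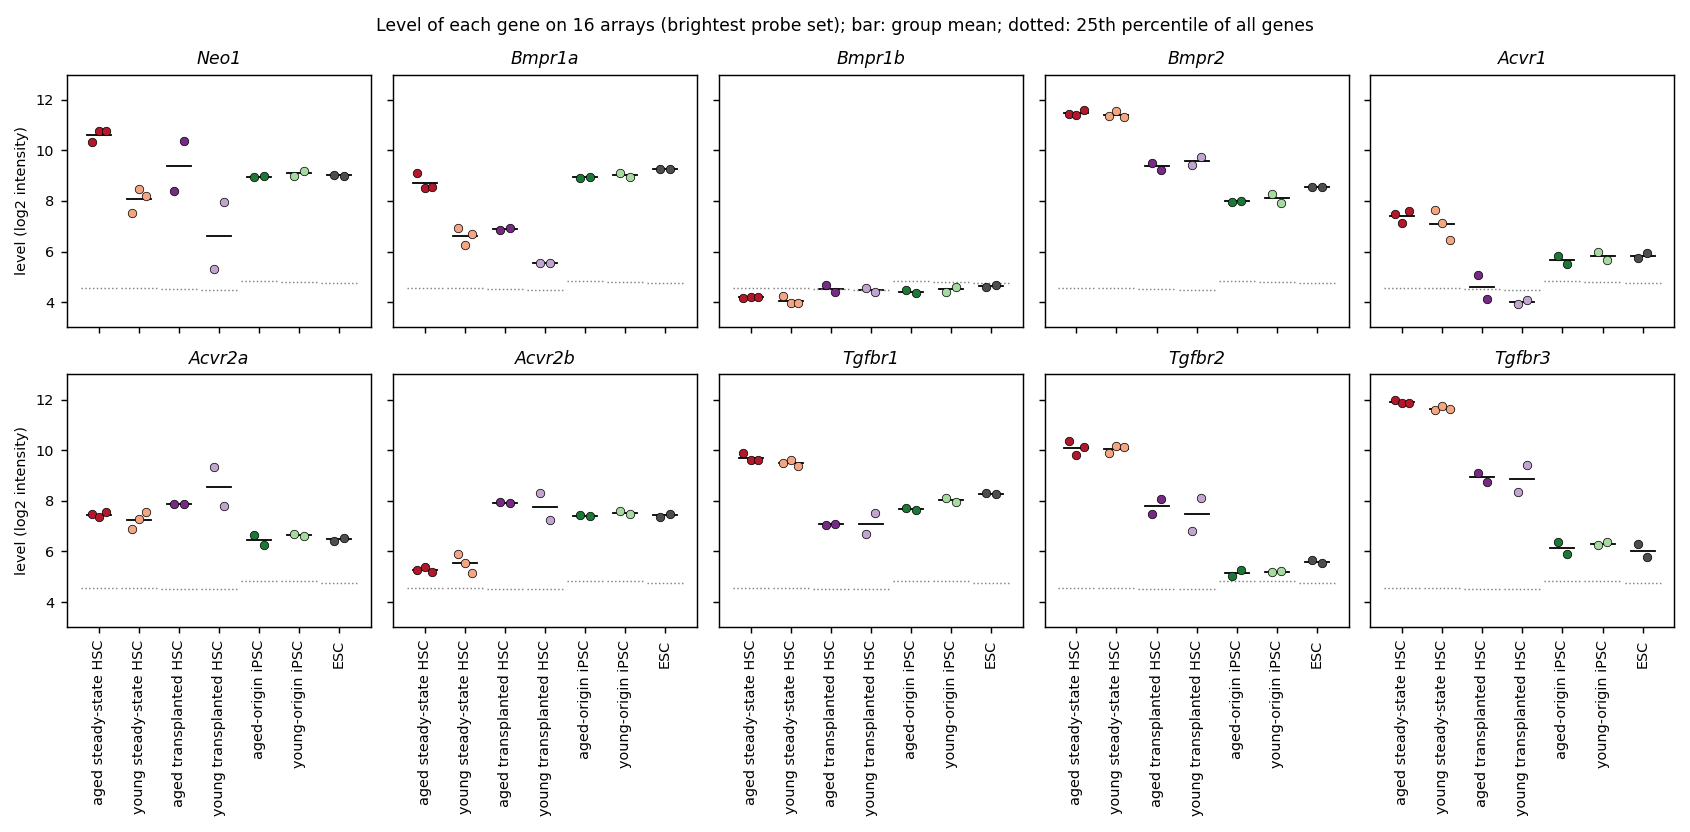
Level of each of the 10 genes (log2 intensity, vertical axis) on the 16 arrays, by group, with points for arrays, black bars for group means and dotted lines for the 25th percentile of all genes in that group. Neo1 and Bmpr1a are higher on aged than on young steady-state HSC arrays, while the other genes lie close together there, and Bmpr1b stays between 3.96 and 4.67 log2.

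On the brightest probe sets, Neo1 was the member with the largest difference between aged and young HSC. Its level was 10.34, 10.76 and 10.75 log2 on the 3 aged steady-state arrays, against 7.54, 8.49 and 8.18 log2 on the 3 young ones. All aged arrays lay above all young arrays, and the mean difference was 2.55 log2 (SE 0.65), or 5.84-fold. In bulk RNA a change in the number of cells of a type cannot be told apart from a change in RNA per cell. In transplanted HSC, Neo1 was at 8.39 and 10.37 log2 on the aged arrays and at 5.30 and 7.94 log2 on the young arrays. These groups did not overlap either, and differed by 2.76 log2 (SE 0.79), or 6.76-fold. The lower aged array was only slightly above the higher young one. Leaving out young transplanted replicate 1, the array at 5.30 log2, reduced the difference to 1.44, and leaving out young transplanted replicate 2 raised it to 4.08. Averaged over both settings the difference was 2.65 log2 (SE 0.51).

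The probe sets of Neo1 pointed the same way. All 5 had a higher mean in aged than in young steady-state HSC, by 0.59 to 2.97 log2, and 4 of the 5 had no overlap between the arrays. All 5 also had a higher mean in aged than in young transplanted HSC, by 0.38 to 2.80 log2, again with 4 without overlap. A pair of the Neo1 probe sets was designed on the same sequence record, so they are not independent measurements of the gene.

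Bmpr1a, a type I BMP receptor gene, was the other member that stood apart by age. It measured 9.09, 8.50 and 8.55 log2 in aged steady-state HSC and 6.92, 6.24 and 6.68 log2 in young steady-state HSC. The lowest aged array was above the highest young one, and the means differed by 2.10 log2 (SE 0.22), or 4.28-fold. In transplanted HSC it measured 6.85 and 6.93 log2 on aged arrays and 5.56 and 5.54 log2 on young arrays, a difference of 1.34 log2 (SE 0.27), or 2.53-fold. Here the arrays of each group were close together and the groups were well apart. Leaving out 1 array at a time gave 1.91 to 2.25 log2 in steady-state HSC and 1.30 to 1.38 log2 in transplanted HSC.

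Of the 6 Bmpr1a probe sets, 4 had all aged above all young steady-state arrays, with differences of 1.79 to 2.39 log2, and the remaining pair differed by 0.25 and 0.27 log2 with overlap. In transplanted HSC, 5 of the 6 had all aged above all young arrays, by 1.02 to 3.66 log2. The sixth, which is dim in every group, differed by -0.34 log2 with overlap. The largest of these differences belonged to a pair of probe sets, 1 of which was at 9.57 and 9.10 log2 on aged transplanted arrays, against 6.09 and 5.26 log2 on young transplanted arrays. On that probe set the aged transplanted arrays were also above the aged steady-state arrays, which were at 6.08, 5.98 and 6.05 log2. On the brightest probe set they were below them. In all, 5 of the 6 Bmpr1a probe sets come from 1 sequence record.

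**Figure D2:**
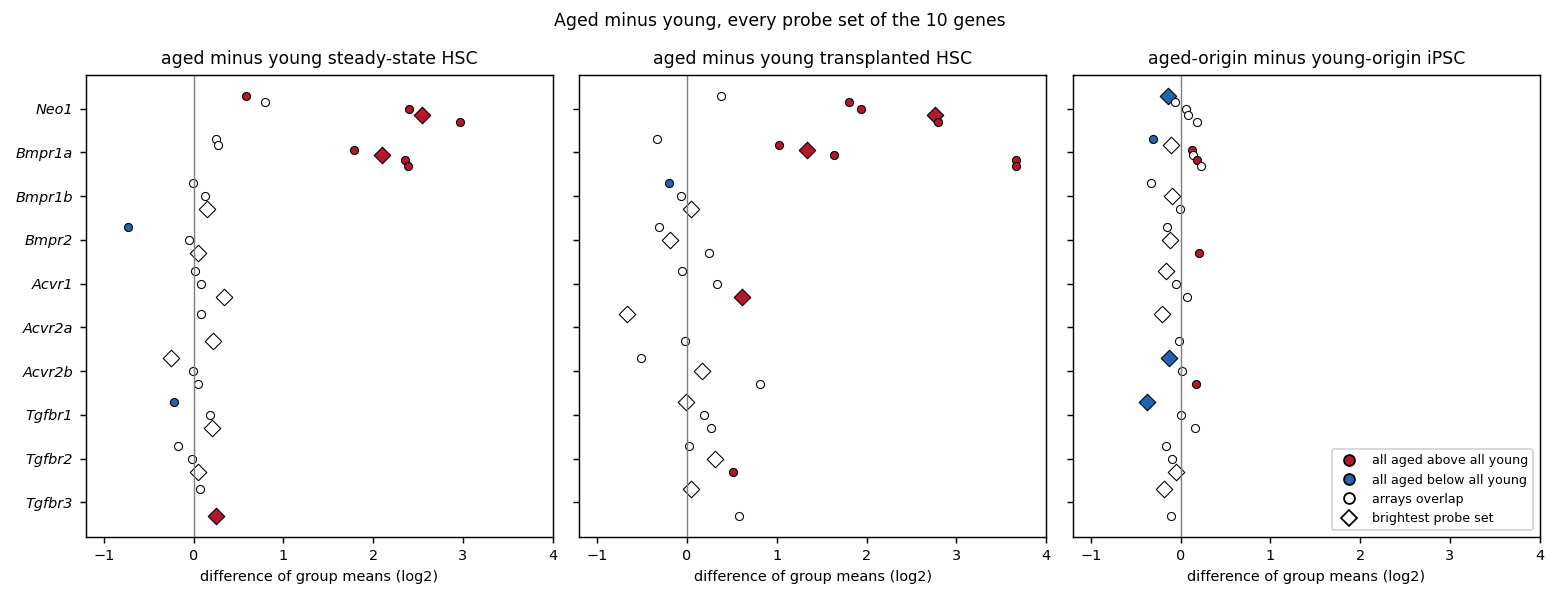
Difference between aged and young group means (log2, horizontal axis) for each of the 33 probe sets, by gene, in steady-state HSC, transplanted HSC and iPSC. Diamonds are the brightest probe set of a gene, and filled symbols are probe sets whose aged arrays all lie above (red) or below (blue) the young ones; Neo1 and Bmpr1a reach 2.97 and 3.66 log2 in HSC, and no probe set passes 0.37 log2 in either direction in iPSC.

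On their brightest probe sets the other receptor genes differed less between aged and young steady-state HSC. Tgfbr3, the gene of the TGF-beta co-receptor betaglycan, was at 11.99, 11.85 and 11.86 log2 on aged arrays and at 11.60, 11.74 and 11.62 log2 on young arrays. The groups did not overlap, but the difference was 0.25 log2 (SE 0.24). The type I receptor genes Acvr1 and Tgfbr1 differed by 0.34 (SE 0.32) and 0.21 log2 (SE 0.22). The type II receptor genes Acvr2a, Bmpr2, Tgfbr2 and Acvr2b differed by 0.22, 0.05, 0.04 and -0.25 log2, each with overlapping arrays and an SE of 0.17 to 0.34. A dimmer Bmpr2 probe set was at 5.69, 5.96 and 5.77 log2 on aged arrays and at 6.16, 6.71 and 6.72 log2 on young arrays. It was lower in aged HSC without overlap (-0.72 log2, SE 0.36), and so was a dim Tgfbr1 probe set (-0.22 log2, SE 0.23). Bmpr1b, which was not tested, was at 4.20 ± 0.02 log2 in aged and 4.05 ± 0.16 log2 in young steady-state HSC (SD, n = 3 each).

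In transplanted HSC, Acvr1 was at 5.06 and 4.13 log2 on aged arrays and at 3.92 and 4.06 log2 on young arrays. The groups did not overlap but nearly touched, with a difference of 0.61 log2 (SE 0.39), and the young mean was under the 25th percentile of the array. Acvr2a had the widest gap in the opposite direction, with 7.88 and 7.89 log2 on aged arrays and 9.32 and 7.79 log2 on young arrays. The difference of -0.67 log2 (SE 0.41) rested on young transplanted replicate 1, and became 0.10 log2 without it. Tgfbr2, Acvr2b, Tgfbr3, Tgfbr1 and Bmpr2 differed by 0.31, 0.16, 0.05, -0.01 and -0.19 log2, with arrays that overlapped. The sign depended on single arrays for the first 4 genes. Leaving out 1 young transplanted array gave -0.34 to 0.95 log2 for Tgfbr2 and -0.37 to 0.69 for Acvr2b. It gave -0.47 to 0.57 log2 for Tgfbr3, -0.44 to 0.41 for Tgfbr1 and -0.35 to -0.04 for Bmpr2. A dimmer Tgfbr2 probe set was higher on aged arrays without overlap (0.51 log2, SE 0.19).

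Counted over genes, 3 of the 9 tested members had no overlap between aged and young arrays in steady-state HSC, all higher in aged HSC, where 18.2% of 13645 genes did not overlap and 8.84% were higher. In transplanted HSC 3 of the 9 had no overlap, again all higher, where 31.7% of all genes did not overlap and 14.2% were higher. Over the 33 probe sets, 9 were higher and 2 lower without overlap in steady-state HSC, against 7.03% and 8.18% of all single-symbol probe sets, and 11 were higher and 1 lower in transplanted HSC, against 14.5% and 17.5%. The probe sets with all aged above all young arrays were 8 of Neo1 and Bmpr1a and 1 of Tgfbr3 in steady-state HSC. Nothing is read from these counts, because the members were chosen with this contrast known.

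Summed levels of some markers of other cell types differed with age in these arrays. The summed intensity of 8 megakaryocyte and platelet markers was 10626 to 11676 in aged steady-state HSC and 4043 to 4635 in young steady-state HSC, and all 8 lay above the 25th percentile in both groups. In transplanted HSC the sums were closer, at 4055 to 4258 on aged arrays and 3550 to 3843 on young arrays. For 6 endothelial markers the sums were 3991 to 5020 in aged and 1512 to 1818 in young steady-state HSC, and 1628 to 1643 in aged and 964 to 1236 in young transplanted HSC. Vwf is on both lists. Of the 6 endothelial markers, 5 lay above the 25th percentile in each of the 4 HSC groups, and only Cdh5 lay below it. For 7 myeloid markers the sums were 5345 to 6104 in aged and 3554 to 5221 in young steady-state HSC. In transplanted HSC these sums overlapped, at 1920 to 3130 on aged and 2509 to 3226 on young arrays. The highest sums of the erythroid, B-lineage, T-lineage and fibroblast lists on any HSC array were 388, 352, 220 and 454. Whether other cells or the HSC themselves carried these markers was not tested, nor was their part in the Neo1 and Bmpr1a differences.

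RefSeq promoter windows were read for the genes on build GRCm38.p6, and are shown for Neo1 and Bmpr1a, which had the largest age differences on the brightest probe sets. They were found for 9 of the 10 genes. The 250 bases before a RefSeq start of Neo1 (chr9:59036442-59036691, minus strand) and of Bmpr1a (chr14:34502547-34502796, minus strand) were taken. The annotated spans of the genes reach further upstream than these starts, to base 59036614 for Neo1 and base 34503336 for Bmpr1a. The Bmpr1a window therefore lies inside the span of its gene, and the Neo1 window lies partly inside. The windows are given 5′ to 3′, with capitals for GGCGCC, a motif bound by BMP-activated SMADs.
Neo1: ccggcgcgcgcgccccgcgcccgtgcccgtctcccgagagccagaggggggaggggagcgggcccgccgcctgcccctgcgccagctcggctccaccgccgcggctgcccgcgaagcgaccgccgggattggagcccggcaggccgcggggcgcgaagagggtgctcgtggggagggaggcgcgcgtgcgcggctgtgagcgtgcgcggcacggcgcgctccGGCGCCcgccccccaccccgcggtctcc
Bmpr1a: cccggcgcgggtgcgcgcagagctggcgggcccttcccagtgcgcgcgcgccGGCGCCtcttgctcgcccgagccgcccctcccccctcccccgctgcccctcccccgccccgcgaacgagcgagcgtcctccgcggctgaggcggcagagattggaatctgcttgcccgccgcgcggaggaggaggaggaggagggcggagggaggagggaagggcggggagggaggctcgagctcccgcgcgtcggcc
Each window holds 1 match to GGCGCC, which reads the same on both strands, and no match to CAGAC, a longer form of the SMAD-binding letters, on either strand. GGCGCC was also found once in the windows of Bmpr2 and of 1 of the Tgfbr1 starts. It occurred in 9.6% of all 32851 promoter windows and CAGAC in 42.2%. Both windows are rich in G and C: 83.2% in Neo1 and 78.8% in Bmpr1a, against a median of 52.4%. Among the 566 windows with at least 78.8% G and C, 53.2% hold GGCGCC and 21.0% CAGAC. The matches describe the letters of these windows and are not evidence of binding.

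Transplanted HSC were next compared with steady-state HSC, averaged over age, in a fit that did not enter the choice of the genes. The brightest probe set was called for all 9 tested members: 2 were higher and 7 lower in transplanted HSC. Over all genes 69.9% were called, with 19.8% higher and 50.1% lower, and the median of all genes was -0.46 log2. The comparison moved most of the array, and the members' share is read against that. Median intensity per array was 50.3 to 51.9 in transplanted and 43.5 to 45.1 in steady-state HSC. The setting and any difference in array preparation cannot be told apart here, and the part of preparation was not tested.

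Acvr2b and Acvr2a, type II receptors that bind activins and BMPs, were the 2 genes that rose on their brightest probe set. Acvr2b was at 7.94 and 7.92 log2 on aged and 8.29 and 7.24 log2 on young transplanted arrays, against 5.27, 5.37 and 5.19 log2 on aged and 5.90, 5.53 and 5.15 log2 on young steady-state arrays. All transplanted arrays lay above all steady-state arrays, and the difference was 2.45 log2 (SE 0.22, limma adjusted p = 3.80e-06). Acvr2a rose by 0.87 log2 (SE 0.27, limma adjusted p = 0.0135), also with no overlap. Without young transplanted replicate 1 its difference was 0.49 log2 (limma adjusted p = 0.0222).

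The largest fall on the brightest probe sets was that of Acvr1, a type I receptor for BMPs, at 5.06 and 4.13 log2 on aged and 3.92 and 4.06 log2 on young transplanted arrays, against 6.45 to 7.62 log2 on the 6 steady-state arrays. The difference was -2.95 log2 (SE 0.25, limma adjusted p = 2.96e-06), and its size is uncertain because the young transplanted mean was below the 25th percentile. The 3 TGF-beta receptor genes fell too, with differences of -2.87 log2 for Tgfbr3 (SE 0.19), -2.52 for Tgfbr1 (SE 0.17) and -2.45 for Tgfbr2 (SE 0.25), and limma adjusted p-values of 6.55e-07, 7.21e-07 and 9.55e-06. Among the BMP receptor genes, Bmpr2 fell by 1.97 log2 (SE 0.13) and Bmpr1a by 1.44 (SE 0.17), with limma adjusted p-values of 5.97e-07 and 3.38e-05. For Bmpr1a the arrays overlapped, since aged transplanted HSC (6.89 ± 0.06 log2, SD, n = 2) lay within the range of young steady-state HSC (6.62 ± 0.34 log2, SD, n = 3).

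Neo1 fell by 1.34 log2 (SE 0.51, limma adjusted p = 0.0366). The arrays of the 2 settings overlapped, from 5.30 to 10.37 log2 in transplanted and from 7.54 to 10.76 log2 in steady-state HSC. The call was lost when any of 6 arrays was left out, with the largest shrinkage to -0.68 log2 (limma adjusted p = 0.149) without young transplanted replicate 1. It was also lost with quantile normalisation (adjusted p = 0.0524) and with the average of the probe sets (-0.57 log2, adjusted p = 0.0864).

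Other probe sets of the same genes went the opposite way in transplanted HSC. The second Tgfbr3 probe set was at 10.57 and 9.85 log2 on aged and 8.41 and 10.85 log2 on young transplanted arrays, against 4.43 to 4.68 log2 on the 6 steady-state arrays. It rose by 5.38 log2 (SE 0.38, limma adjusted p = 8.67e-07), while the brightest Tgfbr3 probe set fell. The other Tgfbr1 probe sets rose by 3.03 and 4.16 log2, and all 3 Tgfbr1 probe sets were designed on 1 sequence record. In Bmpr1a 1 probe set rose by 2.36 log2, in Bmpr2 1 by 1.54, in Acvr1 1 by 1.15 and in Neo1 1 by 1.12.

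In all, 28 of the 33 probe sets were tested in this comparison, 11 rising and 12 falling, where 29.8% of 26209 tested probe sets rose and 39.4% fell. Of the 9 members with at least 2 tested probe sets, 7 had probe sets called in both directions, against 38.7% of the 6724 genes with at least 2 tested probe sets over the whole array. Only Acvr2a and Acvr2b had none called lower. For Acvr2b only the brightest probe set was called. The others differed by 0.42 and 0.54 log2 with overlapping arrays (limma adjusted p = 0.138 and 0.105). The direction of a change between transplanted and steady-state HSC therefore depends on the probe set for Tgfbr1, Tgfbr2, Tgfbr3, Bmpr1a, Bmpr2, Acvr1 and Neo1. Averaging each gene over its probe sets turned Tgfbr1 to 1.56 log2 and Tgfbr3 to 1.26 log2 higher in transplanted HSC. The summed intensity of 8 HSC markers also differed between the settings, at 7981 to 9227 in transplanted and 22596 to 25678 in steady-state HSC. Its part in these differences was not tested.

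**Figure D3:**
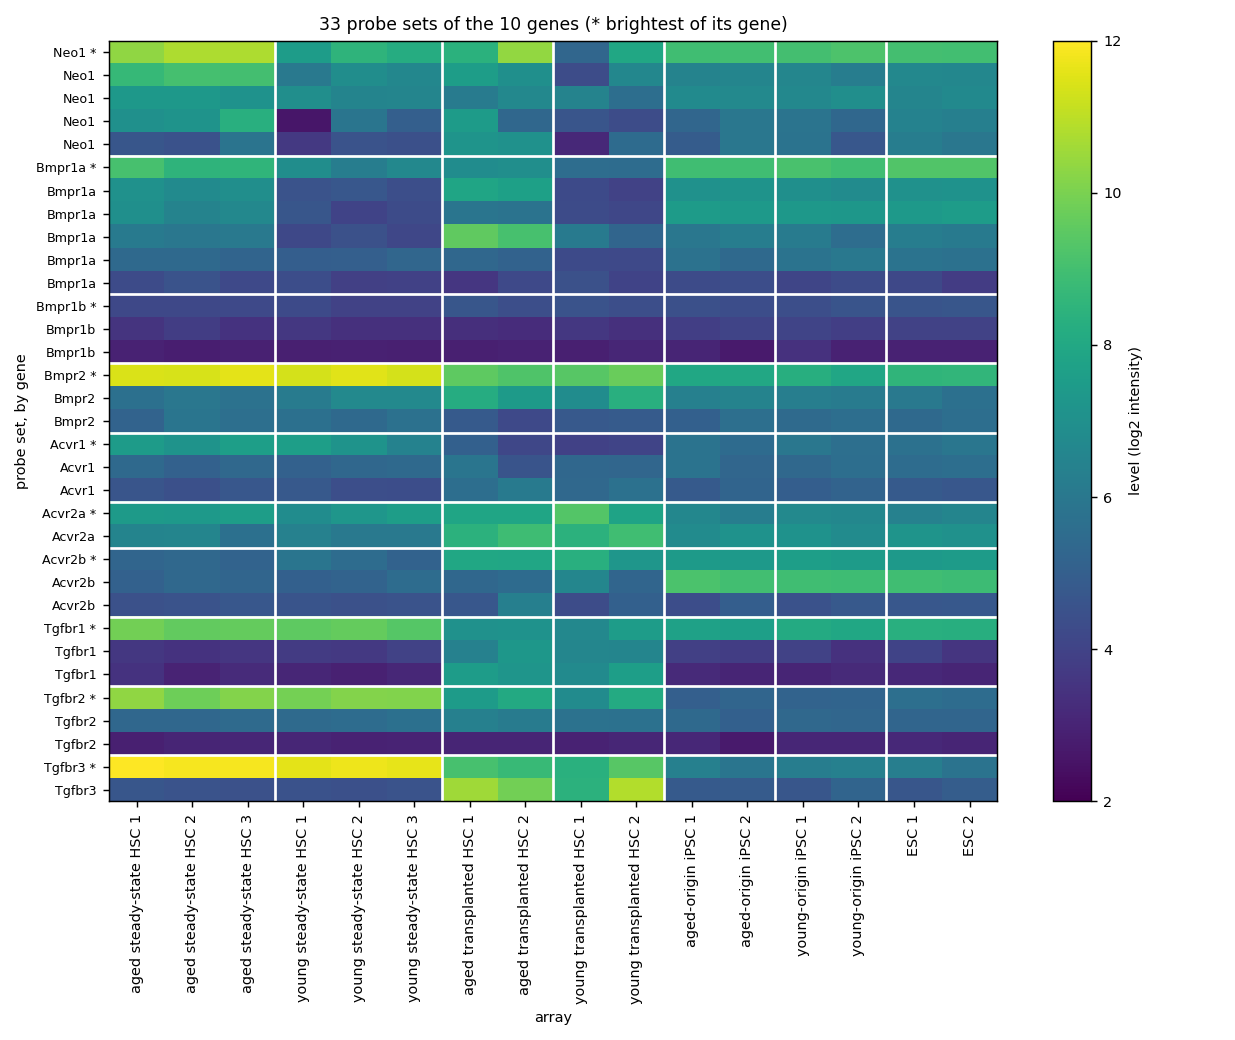
Level (log2 intensity, colour) of the 33 probe sets, in rows by gene with the brightest marked by an asterisk, on the 16 arrays in columns by group. In the transplanted HSC columns the second Tgfbr3 probe set reaches 10.85 log2 and 2 Tgfbr1 probe sets reach 7.62 and 7.31 log2, above their levels in every other group, while the brightest probe sets of both genes are below their steady-state HSC levels.

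**Figure D4:**
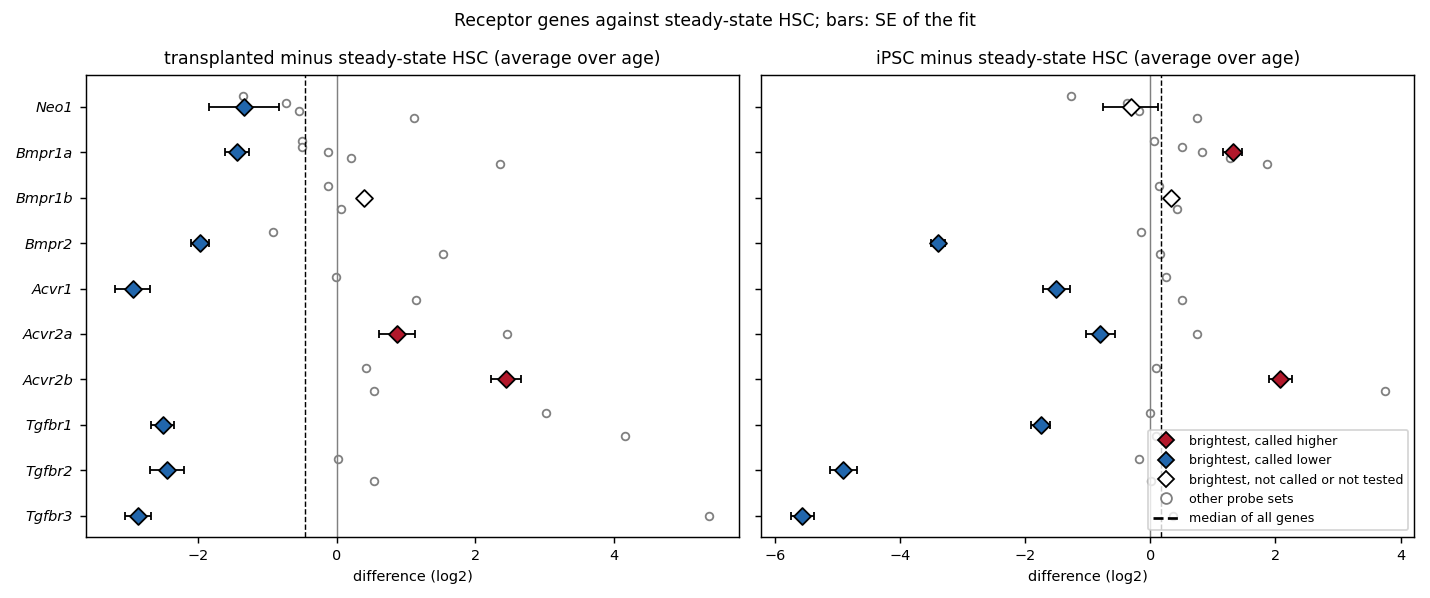
Difference (log2, horizontal axis) from steady-state HSC of transplanted HSC (left) and iPSC (right), averaged over age, for each gene. Diamonds with bars are the brightest probe set with its SE, circles the other probe sets, and the dashed line is the median of all genes, at -0.46 log2 on the left and 0.17 log2 on the right; Tgfbr2 and Tgfbr3 are lowest on the right, at -4.91 and -5.56 log2.

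In iPSC, the age of the haematopoietic origin left no call among the 10 genes. Neo1 was at 8.94 and 8.98 log2 in aged-origin iPSC and at 9.0 and 9.20 log2 in young-origin iPSC, a difference of -0.14 log2 (SE 0.13, limma adjusted p = 0.980). Bmpr1a was at 8.92 and 8.94 log2 in aged-origin and at 9.12 and 8.94 log2 in young-origin iPSC, a difference of -0.10 log2 (SE 0.12, limma adjusted p = 0.980). For Bmpr1a the arrays of the 2 origins overlapped, and for Neo1 they did not, as for 33.4% of all genes. The Neo1 difference was not shared by its probe sets, since 3 of the 5 had a higher mean in aged-origin iPSC and their arrays overlapped.

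Tgfbr1, the type I TGF-beta receptor gene, had the smallest p of the members in iPSC, at 7.71 and 7.63 log2 in aged-origin and 8.10 and 7.97 log2 in young-origin iPSC. The arrays did not overlap, and the difference of -0.37 log2 (SE 0.12) had an unadjusted p of 0.0143 and a limma adjusted p of 0.976. It was 1 of the 9 tested members at an unadjusted p under 0.05, where 4.98% of all genes were (2.76% lower), while 0 of 9 were called after adjustment and 1 gene of 13645 (0.00733%) was called over the whole array. The brightest probe set of all 9 had a lower mean in aged-origin iPSC, by 0.06 to 0.37 log2, where the median of all genes was -0.03 log2. The share of all genes with a lower mean was not counted. A higher mean was found on 4 of 6 Bmpr1a, 3 of 5 Neo1, 2 of 3 Acvr2b and 2 of 3 Tgfbr1 probe sets. Acvr1 and Bmpr2 had 1 of 3 each, and Acvr2a, Bmpr1b, Tgfbr2 and Tgfbr3 had none. Over the 27 tested probe sets of the members 0 were called.

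Set against ESC, 0 of 9 members were called in iPSC, where 15 genes (0.11%) were called over the array, and 4 of 9 had an unadjusted p under 0.05, all with a lower mean in iPSC. Over all genes 12.7% had such a p, 7.28% with a lower mean. Bmpr2 was at 7.98 and 8.0 log2 in aged-origin and 8.28 and 7.93 log2 in young-origin iPSC, against 8.56 and 8.57 log2 in ESC. The difference was -0.52 log2 (SE 0.12, limma adjusted p = 0.205), with all iPSC arrays below both ESC arrays. A second Bmpr2 probe set went the other way, with all iPSC arrays above both ESC arrays (0.46 log2, SE 0.14, limma adjusted p = 0.264), and the mean of the probe sets differed by -0.04 log2. Tgfbr1 differed by -0.43 (SE 0.11), Tgfbr2 by -0.43 (SE 0.12) and Bmpr1a by -0.30 log2 (SE 0.11), with limma adjusted p-values of 0.217, 0.249 and 0.317. On its brightest probe set Neo1 had ESC arrays at 9.03 and 8.99 log2 and a difference of 0.02 log2 (SE 0.11, limma adjusted p = 0.949). Its other probe sets differed by -0.75, -0.73, -0.20 and 0.13 log2, with limma adjusted p-values of 0.241 to 0.707. In the sets at -0.75 and -0.20 log2 the iPSC arrays lay below both ESC arrays, and the mean of all 5 differed by -0.30 log2.

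Fibroblast and feeder markers moved between these cultures. The summed intensity of 9 such markers was 477 to 504 in aged-origin iPSC and 469 to 826 in young-origin iPSC, against 746 to 763 in ESC. Their part in the iPSC differences was not tested.

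Between iPSC and steady-state HSC most receptor genes were lower in iPSC on their brightest probe set. The steady-state arrays are the same as in the comparison with transplanted HSC, as the iPSC arrays are in the comparisons by origin and with ESC. The kind of cell and any difference in array preparation cannot be told apart in this comparison either. Of the 9 tested members 8 were called, 2 higher and 6 lower in iPSC, where 76.4% of all genes were called, 41.8% higher and 34.7% lower, around a median of 0.17 log2. Over the 26 tested probe sets of the members the balance was different, with 9 called higher and 7 lower, where 39.1% of all tested probe sets were higher and 32.2% lower. On the brightest probe sets the TGF-beta receptor genes Tgfbr3 and Tgfbr2 had the largest falls. Tgfbr3 was at 5.88 to 6.36 log2 on the 4 iPSC arrays against 11.60 to 11.99 log2 on the 6 steady-state HSC arrays, a fall of 5.56 log2 (SE 0.18, limma adjusted p = 2.59e-12), or 47.3-fold. Tgfbr2 was at 5.01 to 5.28 log2 in iPSC against 9.81 to 10.36 log2 in steady-state HSC, and was 30.0-fold lower (limma adjusted p = 4.74e-11). Both genes were below the median of the array in iPSC, at percentiles 45.6 and 30.4 in aged-origin iPSC and 48.5 and 31.5 in young-origin iPSC. The falls were not shared by the other tested probe set of each gene. It differed by 0.36 log2 for Tgfbr3 (limma adjusted p = 0.344) and by -0.18 log2 for Tgfbr2 (limma adjusted p = 0.153).

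Bmpr2, the type II receptor dedicated to BMPs, fell by 3.39 log2 on its brightest probe set (SE 0.12, limma adjusted p = 4.14e-12). Its other probe sets differed by 0.16 and -0.15 log2, with limma adjusted p-values of 0.570 and 0.441. The type I receptor genes Tgfbr1 and Acvr1 fell by 1.75 (SE 0.15) and 1.5 log2 (SE 0.22), with limma adjusted p-values of 6.38e-08 and 2.60e-05. The other Tgfbr1 probe sets did not pass the filter, and differed by 0.09 and -0.01 log2. Acvr2a fell by 0.80 log2 (SE 0.23, limma adjusted p = 0.00659), a call that was lost with quantile normalisation (adjusted p = 0.0703). Its other probe set rose by 0.75 log2, and 1 of the other Acvr1 probe sets rose by 0.51 log2.

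Acvr2b and Bmpr1a were higher in iPSC. Acvr2b was at 7.38 to 7.61 log2 on the iPSC arrays against 5.15 to 5.90 log2 on the steady-state HSC arrays, a rise of 2.07 log2 (SE 0.18, limma adjusted p = 1.32e-07). Its second probe set rose by 3.75 log2, and its dimmest differed by 0.10 log2 (limma adjusted p = 0.737). Bmpr1a rose by 1.32 log2 (SE 0.15, limma adjusted p = 1.65e-06), and 5 of its 6 probe sets were called higher. This average spans unlike groups, since Bmpr1a was at 8.93 ± 0.02 log2 in aged-origin iPSC against 8.71 ± 0.33 log2 in aged steady-state HSC, and at 9.03 ± 0.13 log2 in young-origin iPSC against 6.62 ± 0.34 log2 in young steady-state HSC (SD, n = 2 for iPSC and 3 for HSC).

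Neo1 was the tested member whose brightest probe set had no call between iPSC and steady-state HSC (-0.31 log2, SE 0.44, limma adjusted p = 0.526). It was at 8.96 ± 0.03 log2 in aged-origin iPSC, below the 10.62 ± 0.24 log2 of aged steady-state HSC, and at 9.10 ± 0.14 log2 in young-origin iPSC, above the 8.07 ± 0.49 log2 of young steady-state HSC (SD, n = 2 for iPSC and 3 for HSC). On this probe set the iPSC levels of both origins lay between those of aged and young steady-state HSC. Of the other 4 probe sets, 1 was called lower in iPSC (-1.26 log2, SE 0.34, limma adjusted p = 0.00402), with means of 6.50 and 6.42 log2 in aged-origin and young-origin iPSC against 6.52 log2 in young steady-state HSC. Another had iPSC means of 5.44 and 5.27 log2, above the 5.01 log2 of aged steady-state HSC, and no call (limma adjusted p = 0.126).

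The orders of the groups that follow are those of the brightest probe set of each gene. Across the 7 groups, Neo1 ran from aged steady-state HSC through aged transplanted HSC (9.38 ± 1.40 log2), young-origin iPSC, ESC (9.01 ± 0.03), aged-origin iPSC and young steady-state HSC to young transplanted HSC (6.62 ± 1.87). Neighbours in this order overlapped except ESC and aged-origin iPSC, and aged-origin iPSC and young steady-state HSC. Bmpr1a was highest in ESC (9.28 ± 0.01), followed by young-origin and aged-origin iPSC, aged steady-state HSC, aged transplanted HSC, young steady-state HSC and young transplanted HSC (5.55 ± 0.01). Its overlapping neighbours were both kinds of iPSC, aged-origin iPSC with aged steady-state HSC, and aged transplanted with young steady-state HSC.

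Bmpr2, Tgfbr2 and Tgfbr3 shared the order steady-state HSC, transplanted HSC, then cultured cells, with overlap between ages in transplanted HSC for all 3 and in steady-state HSC for Bmpr2 and Tgfbr2. Tgfbr1 and Acvr1 were highest in steady-state HSC and lowest in transplanted HSC, with ESC and iPSC between. Acvr2a and Acvr2b were highest in transplanted HSC. Acvr2a was lowest in the cultured cells, while Acvr2b was lowest in steady-state HSC. Other probe sets gave other orders. A dimmer probe set each of Bmpr2, Tgfbr2, Tgfbr3 and Acvr1 and both dimmer ones of Tgfbr1 had their highest means in transplanted HSC, up to 10.21 log2 in aged and 9.63 log2 in young transplanted HSC for Tgfbr3. The second Acvr2a probe set was lowest in steady-state HSC (6.25 log2 in aged and 6.17 log2 in young), and a second Acvr2b probe set was higher in aged-origin and young-origin iPSC (9.09 and 8.92 log2) than in aged and young transplanted HSC (5.42 and 5.93 log2).

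The rest of the pathway was described by 8 lists holding 112 genes on the array, of which 79 passed the filter in HSC. The lists were drawn up with earlier results of these arrays known, so their p-values by age are not independent evidence. In aged against young steady-state HSC 2 of the 79 rose and 0 fell, a share of 2.53% against 1.18% of all genes (0.96% higher), and their median difference was 0.02 log2 against -0.02 log2 over all genes. Bmp4, which encodes a BMP ligand, was at 7.80, 7.98 and 7.64 log2 on aged arrays and 5.96, 5.61 and 5.64 log2 on young arrays, and rose by 2.07 log2 (SE 0.31, limma adjusted p = 0.00880). Id2, which encodes an inhibitor of basic helix-loop-helix factors and is a textbook BMP target, was at 9.47, 8.68 and 8.85 log2 on aged and 7.60, 7.74 and 7.47 log2 on young arrays, and rose by 1.40 log2 (SE 0.24, limma adjusted p = 0.0215). Neither gene's arrays overlapped between the ages. Bmp4 kept its call in 16 of 19 other settings and Id2 in 13 of 20. The calls were lost without any of 3 arrays for Bmp4 (adjusted p up to 0.0608) and any of 5 for Id2 (adjusted p up to 0.130).

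The other BMP targets and the SMADs did not pass the test in this contrast. Id1 differed by 0.15 log2 (SE 0.29, limma adjusted p = 1.00), with 5.65, 5.02 and 4.67 log2 on aged and 5.51, 4.54 and 4.85 log2 on young arrays. Id3 did not pass the filter in HSC, and was at 4.32 log2 on average in aged and 3.86 log2 in young steady-state HSC. Smad1 was at 11.47, 11.50 and 11.22 log2 on aged and 11.17, 10.91 and 10.87 log2 on young arrays, without overlap, and differed by 0.41 log2 (SE 0.17, limma adjusted p = 0.725). The differences of Smad4 and Smad5 were -0.01 and 0.15 log2. The inhibitory SMAD genes Smad6 and Smad7 differed by -0.76 (SE 0.24, limma adjusted p = 0.365) and -0.08 log2. Smad6 had the smallest p of the SMAD list.

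Of the neogenin ligands and partners, 0 of 12 tested genes were called in this contrast. Rgmb, which encodes an RGM protein, was at 7.22, 6.02 and 7.37 log2 on aged and 3.80, 6.67 and 5.70 log2 on young steady-state arrays, with a difference of 1.48 log2 (SE 0.69, limma adjusted p = 0.841) and overlapping arrays. Dimmer Rgmb probe sets at 0.99, 1.08 and 1.10 log2 were higher in aged steady-state HSC without overlap. The remaining ones, at -0.05 and 0.07 log2, overlapped. Ntn4, a netrin gene, had the smallest p of the list, with means of 7.65 log2 in aged and 5.22 log2 in young steady-state HSC and no overlap (2.43 log2, SE 0.60, limma adjusted p = 0.134). Rgma did not pass the filter, at 3.50 log2 in aged and 3.62 log2 in young steady-state HSC, and Hjv, the hemojuvelin gene, differed by 0.33 log2 (limma adjusted p = 0.789). Among the other receptors, the activin type I receptor gene Acvr1b and the endoglin gene Eng differed by 0.11 and -0.11 log2, and Acvrl1 did not pass the filter.

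**Figure D5:**
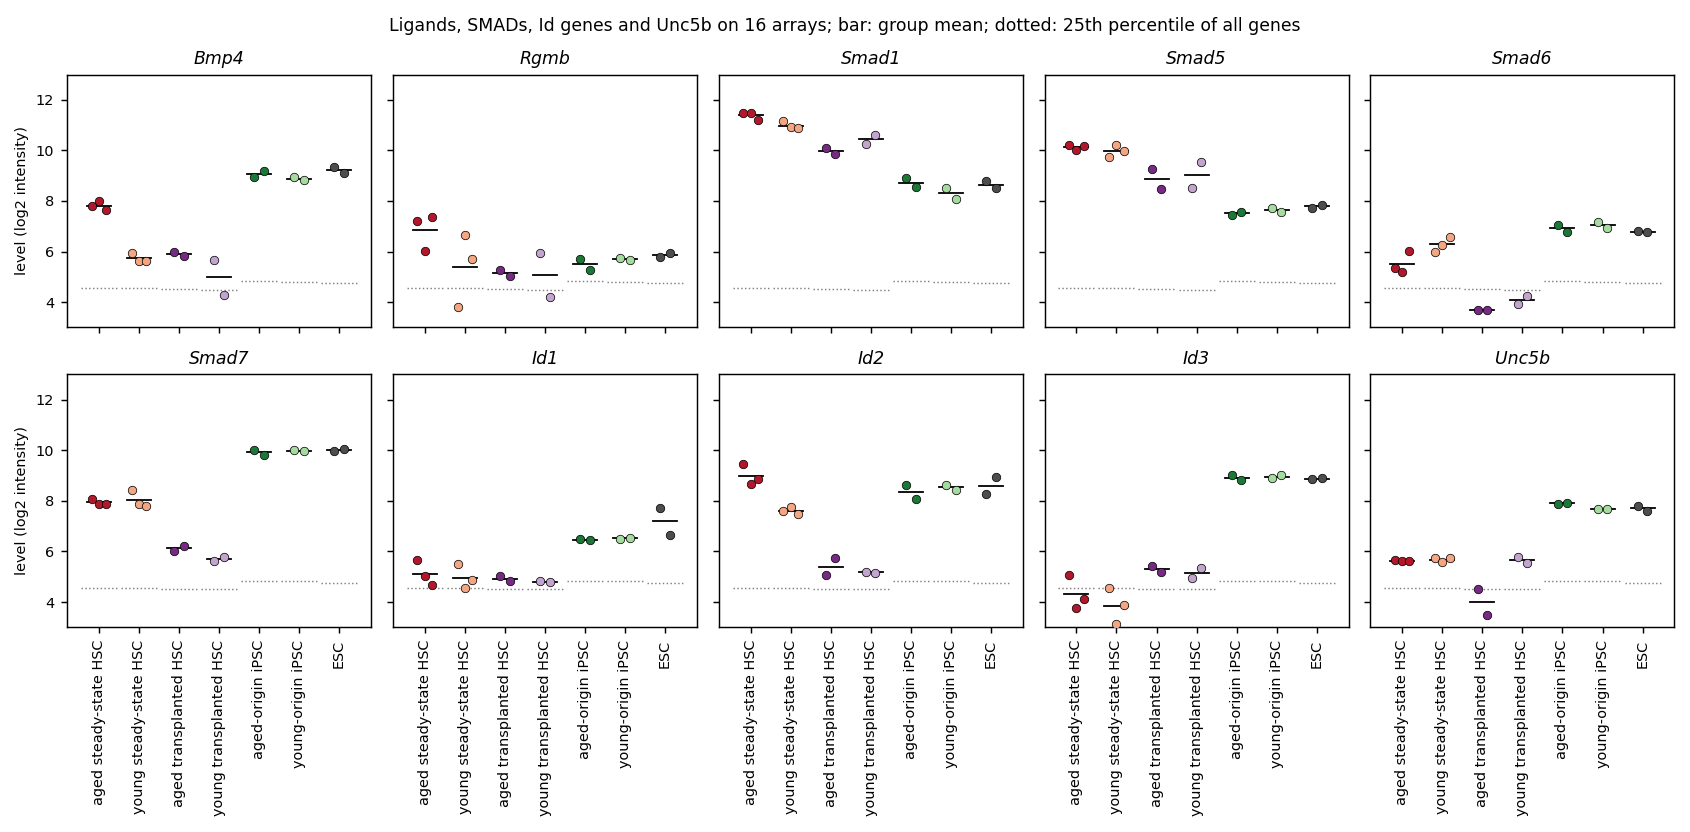
Level (log2 intensity, vertical axis) of 10 pathway genes on the 16 arrays, by group, with points for arrays, black bars for group means and dotted lines for the 25th percentile of all genes. Bmp4 and Id2 are higher on all 3 aged than on all 3 young steady-state HSC arrays, Unc5b is lower on the aged than on the young transplanted arrays, and the Smad and Id genes change mainly between steady-state HSC, transplanted HSC and cultured cells.

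In aged against young transplanted HSC, 0 of the 79 pathway genes rose and 1 fell, a share of 1.27% against 1.35% of all genes. The gene was Unc5b, which encodes a netrin receptor, at 4.5 and 3.49 log2 on aged and 5.78 and 5.55 log2 on young arrays (-1.67 log2, SE 0.29, limma adjusted p = 0.0292). Its aged mean of 3.99 log2 was below the 25th percentile, so the size of the fall is uncertain, and the call held in 9 of 19 other settings. Smad2, a TGF-beta SMAD gene, differed by -1.36 log2 (SE 0.28, limma adjusted p = 0.0510). Bmp4 was at 5.99 and 5.84 log2 on aged and 5.68 and 4.27 log2 on young arrays (0.94 log2, SE 0.38, limma adjusted p = 0.270), and Id2 differed by 0.23 log2 (limma adjusted p = 0.784). Smad1, Smad4, Smad5, Smad6 and Smad7 differed by -0.47, -0.40, -0.18, -0.41 and 0.42 log2, Id1 by 0.12, Rgmb by 0.06 and Hjv by -0.23, with limma adjusted p-values of 0.340 to 0.985. A second bright Smad1 probe set differed by 0.37 log2, with overlap. Dimmer Rgmb probe sets at -0.33 and -0.67 log2 were lower in aged transplanted HSC without overlap. The remaining ones, at 0.65, 0.24 and -0.04 log2, overlapped.

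Whether an age difference itself differed between transplanted and steady-state HSC was tested as an interaction. Of 79 pathway genes 0 were called, where 17 genes (0.125%) were called over the array, and 11 had an unadjusted p under 0.05, all with a smaller value in transplanted HSC. Over all genes 9.73% had such a p, 6.08% with a smaller value in transplanted HSC. For Id2 the interaction was -1.17 log2 (SE 0.39, limma adjusted p = 0.345), for Smad1 -0.88 (limma adjusted p = 0.318) and for Rgmb -1.42 (SE 1.09, limma adjusted p = 0.757). For Neo1 and Bmpr1a the same quantity was 0.21 (SE 1.02) and -0.76 log2 (SE 0.35), given without a test. These are values of the brightest probe sets. A dimmer Id2 probe set differed by age by 1.26 log2 in transplanted and 0.73 log2 in steady-state HSC, without overlap in either. For 3 of the other Bmpr1a probe sets the age difference was larger in transplanted than in steady-state HSC, at 3.66 against 2.36, 3.66 against 1.79 and 1.03 against 0.25 log2. Averaged over both settings, 1.82% of all genes were called, and Bmp4 was the 1 pathway gene, at 1.5 log2 (SE 0.24, limma adjusted p = 0.0147).

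Between transplanted and steady-state HSC, 13 of the 79 pathway genes rose and 42 fell, a share of 69.6% against 69.9% of all genes. Their median was -0.74 log2 against -0.46 log2. Of 7 SMAD genes 6 fell and 0 rose: Smad7 by 2.06, Smad6 by 2.01, Smad4 by 1.35, Smad5 by 1.10 and Smad1 by 0.98 log2, with limma adjusted p-values of 1.21e-06 to 0.00153. The mean of Smad6 in transplanted HSC, 3.89 log2, was below the 25th percentile. Of 11 target genes 7 fell and 1 rose, among them Id2 (-3.02 log2, SE 0.19) and the stem cell transcription factor genes Tal1 (-2.21, SE 0.12) and Gata2 (-1.43, SE 0.12), with limma adjusted p-values of 2.29e-07 to 2.93e-06, while Id1 differed by -0.17 log2 (adjusted p = 0.519).

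Ligand genes went both ways between the settings, with 1 of 7 tested BMP and GDF genes rising and 3 falling, and 3 of 10 TGF-beta, activin and nodal genes rising and 6 falling. Tgfb1, the gene of TGF-beta 1, rose to a mean of 8.66 log2 in transplanted HSC, against 6.32 log2 in steady-state HSC (2.34 log2, SE 0.26, limma adjusted p = 1.66e-05), and Nodal rose by 0.96 log2. Bmp4 fell by 1.32 (SE 0.24) and Lefty1, which encodes a nodal antagonist, by 2.00 log2 (SE 0.16), with limma adjusted p-values of 6.45e-04 and 1.64e-06. Of the 6 other receptor genes tested, 5 fell, among them Acvr1b (-2.57 log2, SE 0.16) and Eng (-1.27, SE 0.12). Tfr2, the transferrin receptor 2 gene on the neogenin partner list, fell by 2.00 log2 (SE 0.15), and Hjv rose by 0.33 log2 (limma adjusted p = 0.0244). In all, 2 of 12 neogenin partner genes rose and 5 fell, as did 3 and 8 of 15 intracellular regulator genes, among them Trim33 (-2.58 log2) and the ubiquitin ligase gene Smurf2 (1.45 log2). Of 11 antagonist and latency genes 3 rose and 2 fell, among them Chrd, the chordin gene (-1.03 log2). These values come from the brightest probe set of each gene.

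Between iPSC and steady-state HSC, 45 of 87 tested pathway genes rose and 24 fell, a share of 79.3% against 76.4% of all genes, with a median of 0.44 log2 against 0.17 log2. All 7 tested BMP and GDF ligand genes rose, led by Bmp4 (2.19 log2, SE 0.21, limma adjusted p = 2.94e-07). Nodal, the ligand that patterns the early embryo, rose by 5.21 log2 (SE 0.14), Lefty1 by 4.73 (SE 0.17) and their co-receptor gene Tdgf1, a pluripotency marker, by 7.84 log2 (SE 0.12). Tdgf1 is also on the pluripotency marker list. Of the TGF-beta, activin and nodal ligand genes 6 of 11 rose and 2 fell, and of the other receptor genes 4 of 8 rose and 4 fell.

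SMAD genes went both ways in the same comparison. Smad1, Smad5 and Smad4 fell in iPSC by 2.68, 2.48 and 1.57 log2, and the inhibitory Smad7 and Smad6 rose by 1.97 and 1.08 log2, with limma adjusted p-values of 3.23e-10 to 4.39e-05. Of the Id genes, Id3 rose by 4.85 log2 (SE 0.26) and Id1 by 1.45 (SE 0.24), while Id2 differed by 0.13 log2 (SE 0.20, limma adjusted p = 0.540). Id3 was at 8.81 to 9.02 log2 on the iPSC arrays, against 3.15 to 5.06 log2 on the steady-state HSC arrays. The blood transcription factor genes Tal1 and Gata2 fell by 6.33 and 3.75 log2, and 7 of 15 target genes rose and 5 fell. Among neogenin partners 6 of 13 rose and 3 fell, with Tfr2 falling by 7.16 log2 and the netrin gene Ntn1 and its receptor gene Unc5b rising by 2.68 and 2.14 log2. Of 15 regulator genes 6 rose and 3 fell, and of 11 antagonist and latency genes 7 rose and 2 fell.

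Of 84 pathway genes tested among the cultured cells, 0 were called between aged-origin and young-origin iPSC and 0 between iPSC and ESC. At an unadjusted p under 0.05 there were 7 in the first comparison, where 4.98% of all genes were, and 10 in the second, where 12.7% were. Smad1 differed by 0.42 log2 (SE 0.19) and Hjv by 0.39 log2 (SE 0.14) between iPSC of aged and young origin, each with a limma adjusted p of 0.976. Against ESC, the TGF-beta repressor gene Tgif1 had the smallest p (-0.76 log2, SE 0.13, limma adjusted p = 0.0949), and Id1 differed by -0.69 log2 (SE 0.24, limma adjusted p = 0.310), with ESC arrays at 7.74 and 6.63 log2.

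The genes whose levels most resembled Neo1 were sought as a description. Over the 10 HSC arrays the 5 highest Pearson correlations included those with Pfkp (0.94), which encodes a phosphofructokinase, the transporter gene Abcb1a (0.93), the integrin gene Itga6 (0.91) and Mycn (0.91). Over all 16 arrays they were with Lrmda (0.86), Abcb1a (0.85), the synaptic scaffold gene Homer1 (0.84), Wwtr1 (0.84), which encodes the Hippo coactivator TAZ, and the zinc transporter gene Slc30a1 (0.83). These were the highest of all tested genes and the arrays share groups, so no p is given. Abcb1a, which was on both lists, had means of 9.02 log2 in aged and 7.60 log2 in young steady-state HSC, and 7.54 log2 in aged and 6.33 log2 in young transplanted HSC.

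For the other members the closest gene over the 16 arrays was Mmp14 for Bmpr1a (0.97), Mcur1 for Bmpr2, Spast for Tgfbr2 and Sft2d2 for Tgfbr3 (each 1.00), Ppp3cb for Tgfbr1 (0.99), Acp1 for Acvr2b (0.98), Blzf1 for Acvr1 (0.97), Kdm5c for Acvr2a (0.94) and 2900079G21Rik for Bmpr1b (0.90). Mmp14, a membrane metalloprotease gene, had means of 8.02 log2 in aged and 6.62 log2 in young steady-state HSC, 6.39 log2 in aged and 5.50 log2 in young transplanted HSC, and 8.42 to 8.60 log2 in the cultured cells. No member shared its closest gene with another.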

How the data were processed

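Gene expression was measured on 16 single-channel mouse arrays, and the deposited table holds linear probe set intensities between 4.53 and 31493 that the authors had summarised and scaled. The summary and scaling methods are not given in the sources used here. Probe sets were named from the platform annotation: 34945 of 45101 had 1 gene symbol, 932 several and 9160 were not listed. Of 18193 genes, 18032 matched RefSeq symbols.

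The deposited intensities were taken to log2 without a pseudocount. A gene was represented by its brightest probe set, and genes below the 25th percentile of mean level were left out, which kept 13645. Differences were fitted with limma 3.58.1 in R 4.3.3 (lmFit and eBayes) on the 10 HSC arrays, on the 6 iPSC and ESC arrays, and on all 16 arrays for iPSC against HSC. A call is a Benjamini-Hochberg adjusted p under 0.05, over all genes tested. Probe sets were fitted separately over 26209 probe sets. The fit was tested on simulated data. The number of arrays limits the precision.

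The members and the lists were chosen with earlier results of these data known. Named are all members, the 14 pathway genes always listed, and up to 4 called genes per list and comparison with the smallest p, or the 1 with the smallest p where none was called. Alternatives changed the scaling, the filter, the probe set rule, the prior, the arrays fitted, the replicate block and the pseudocount, and left out each array. No array date was used. List genes without a probe set of their own were not analysed here. Of the 5 genes most like Neo1 over the HSC arrays, 1 is not reported here.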

Additional observations from a re-analysis of the deposited data

Results flagged for a closer look

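The age difference in HSC and in iPSC ran in opposite directions for 4 genes, with every array of one age on one side in each. None of these differences between cell kinds was tested. Arrays of the 2 ages did not overlap for 18.2% of all genes in the steady-state comparison, 31.7% in the transplanted one and 33.4% among iPSC. They did so in opposite directions for 2.85% of all genes between steady-state HSC and iPSC and 4.78% between transplanted HSC and iPSC. Neo1 was 2.55 log2 higher in aged than in young steady-state HSC and 2.76 log2 higher in aged than in young transplanted HSC, against -0.14 log2 in aged-origin over young-origin iPSC. The iPSC value is that of the brightest probe set, and 3 of the 5 Neo1 probe sets had a difference above 0 there, with a mean of all 5 of 0.023 log2. Hjv, the hemojuvelin gene, differed by -0.23 log2 between aged and young transplanted HSC and by 0.39 log2 between aged-origin and young-origin iPSC. Smad1, a BMP signal transducer gene, differed by -0.47 log2 in transplanted HSC and by 0.42 log2 in iPSC, while a second bright Smad1 probe set differed by 0.37 log2 in transplanted HSC. Id1, a BMP target gene, differed by 0.12 log2 in transplanted HSC and by -0.06 log2 in iPSC.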

How the results depend on the processing

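Most values in tested comparisons kept their direction and their side of the threshold. The members' age differences in HSC counted as unchanged when they moved less than the spread of arrays within groups, whatever their sign. That of Tgfbr2 in steady-state HSC ran from -0.05 to 0.04 log2. Counts stood as unchanged within a fixed ratio, such as 7 to 10 called members between transplanted and steady-state HSC. Without counting the fits that left out an array, 555 of the values of single genes were unchanged in this sense. Of the tested values 11 turned sign and 9 lost their call, 6 age differences moved, and 112 counts were unchanged while 18 moved. The cause of these changes was not tested.

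Of the pathway genes called between aged and young steady-state HSC (2 as reported), 1 was called with the filter at the 50th percentile, 1 with the mean of the probe sets, 1 with the replicate block and 5 in the steady-state arrays alone. Between aged and young transplanted HSC (1 as reported) there were 2 with quantile normalisation, with median centring and with the mean of the probe sets, and 3 with all 16 arrays in 1 fit. There were 0 with the stricter filter, the replicate block, a pseudocount of 64 or the transplanted arrays alone. Between iPSC and ESC (0 as reported) 1 was called with the stricter filter, 2 with a trend and robust prior and 1 with the pseudocount. The stricter filter tests fewer genes and left 38 calls between iPSC and steady-state HSC and 29 between transplanted and steady-state HSC.

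The mean of the probe sets turned Tgfbr1 to 1.56 and Tgfbr3 to 1.26 log2 between transplanted and steady-state HSC, and brought Bmpr1a to -0.00097 log2. It also turned the origin difference in iPSC of Acvr2b, Bmpr1a and Neo1 to 0.018, 0.044 and 0.023 log2, and the difference from ESC of Acvr1, Acvr2a and Neo1 to 0.053, -0.045 and -0.30 log2. The age difference of Bmpr1a was 1.52 log2 in steady-state and 1.83 log2 in transplanted HSC with that mean, and 1.57 and 0.72 log2 with the pseudocount. Against steady-state HSC, Acvr1 in iPSC lost its call with that mean (-0.25 log2, adjusted p = 0.0861), as did Acvr2a (-0.02 log2). The call of Neo1 between transplanted and steady-state HSC was lost with the pseudocount (-1.02 log2, adjusted p = 0.0502).

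Deviations of same-numbered arrays correlated at 0.147, -0.197 and 0.194 for steady-state HSC, -0.159 for transplanted HSC and -0.051 for iPSC. Differently numbered steady-state arrays gave -0.311 to 0.204. With 2 arrays per group, crossed pairs give the same value with the opposite sign, 0.159 for transplanted HSC and 0.051 for iPSC. These values therefore do not settle whether same-numbered arrays are paired. With the replicate block 63 pathway genes were called between iPSC and steady-state HSC and 39 between transplanted and steady-state HSC, and 7 and 9 members. The block turned Acvr1 and Neo1 to 0.068 and -0.039 log2 between iPSC and ESC and Neo1 to 0.033 log2 between iPSC and steady-state HSC, and Acvr2a lost its call there (-0.50 log2). Crossing the numbers of the transplanted arrays, chosen after seeing the data, gave 3 pathway calls between the ages.

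Leaving out 1 array at a time, where a lone array is taken to vary like the other groups, gave 8 to 9 called members between transplanted and steady-state HSC. Members without overlap numbered 3 to 5 in steady-state and 3 to 9 in transplanted HSC, the 9 without young transplanted replicate 1. With all arrays in, 18.2% and 31.7% of all genes did not overlap in these settings. The share of all genes was not counted with an array left out. Fewer arrays overlap less often, so nothing is read from these counts about the members. Called pathway genes numbered 0 to 3 by age in steady-state HSC, 0 to 8 in transplanted HSC, 0 to 1 against ESC, 65 to 73 between iPSC and steady-state HSC and 49 to 62 between transplanted and steady-state HSC. By origin of iPSC, Acvr1 ranged from -0.32 to 0.0012, Bmpr2 from -0.29 to 0.058, Tgfbr2 from -0.19 to 0.075 and Tgfbr3 from -0.42 to 0.051 log2. Against ESC, Acvr1 ranged from -0.19 to 0.015, Acvr2a from -0.025 to 0.18, Neo1 from -0.028 to 0.074 and Tgfbr3 from -0.065 to 0.42 log2. Dim probe sets near or below the 25th percentile, such as all of Bmpr1b, limit what can be seen.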
